A study of Rattus norvegicus with 10 samples.

Results

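The metabolic hormone receptors of the liver were described across 10 rat livers. The set was fixed by gene name and holds 9 receptors or co-receptors, namely Gcgr, Ghr, Lepr, Adipor1, Adipor2, Fgfr4, Klb, Egfr and Prlr. Of these, 8 had isoform rows in the deposited table of 51430 isoforms, and the 8 were summed from 49 isoform rows. The same choice of rows gave 20226 named genes in all. Klb, the klotho co-receptor that lets Fgfr4 bind FGF19-type hormones, matched 0 rows and was not analysed here. All 8 receptors passed the filter on low values (a mean of at least 1 FPKM, a level scaled by transcript length and library size, over the 10 libraries), which left 11139 genes for testing.

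All 10 livers came from Wistar rats of wild type genotype that had been made diabetic before surgery. The rats ate a diet with 60% of calories as fat for 4 weeks, then received 1 intraperitoneal streptozotocin dose of 35 mg/kg after 16 h of fasting, and were kept as diabetic when fasting glucose stayed above 16.7 mmol/L at 3 days. They were then assigned at random to sleeve gastrectomy (SG, 5 libraries, livers at 3 months after surgery) or to a sham operation (SHAM, 5 libraries, with no time stated in the labels), in groups matched for body weight. Age and sex were not given, and there was no group without diabetes or surgery. The labels name libraries rather than animals, so the tests below are read against the spread between libraries, which may be partly technical. Where a liver is named or counted below, it stands for 1 library. The comparison of SG with SHAM asks how liver RNA differs after the stomach is reduced, with diet, streptozotocin and an operation common to both groups.

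Each of these receptors couples a hormone from blood to liver metabolism. Glucagon acts on Gcgr, a G protein-coupled receptor that raises cAMP and thereby glucose output. Growth hormone, prolactin and leptin act on Ghr, Prlr and Lepr, cytokine-type receptors without a kinase of their own that signal through JAK kinases and STAT factors, while adiponectin acts on Adipor1 and Adipor2, membrane proteins tied to AMPK and ceramide breakdown. Fgfr4 and Egfr are receptor tyrosine kinases, the first restraining bile acid synthesis and the second driving hepatocyte growth and repair. In the rat, female livers carry more Prlr than male livers, growth hormone pulses set much of the sex-dependent liver program, and an alternatively spliced Ghr transcript encodes a soluble growth hormone binding protein.

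Total estimated counts ran from 77617460 to 92110190 in the SG libraries and from 65824088 to 85520959 in the SHAM libraries. Hepatocyte markers dominated every library, with summed levels of 39114 to 51323 FPKM in SG and 34087 to 46586 FPKM in SHAM. Macrophage markers summed to 620 FPKM in SG 2 and 628 FPKM in SHAM 5. The other SG livers stood at 286 to 314 FPKM and the other SHAM livers at 245 to 374 FPKM. Values without SG 2 and SHAM 5 are therefore given beside several of the results. Stellate cell markers summed to 53.0 to 128 FPKM in SG and 41.9 to 78.6 FPKM in SHAM, endothelial markers to 138 to 181 and 107 to 168 FPKM, lymphocyte markers to 30.2 to 85.7 and 14.4 to 36.8 FPKM, cholangiocyte markers to 9.93 to 18.4 and 7.29 to 13.3 FPKM, and red blood cell and adipocyte markers to 41.9 to 118 and 62.8 to 242 FPKM. Because these are bulk samples, fewer cells of a type and less RNA per cell cannot be told apart.

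The RefSeq starts of Prlr are shown first, because Prlr was the receptor that varied most between livers and its isoform rows began at several sites. RefSeq's promoter table, on the GRCr8 build, held 2 Prlr windows of 250 bases before to 50 bases after a start, both on chromosome 2 and the + strand. Capitals mark a match to TTCNNNGAA, the letters a STAT dimer such as STAT5 prefers, which reads the same on both strands.
Prlr upstream start, chr2:60861515-60861814: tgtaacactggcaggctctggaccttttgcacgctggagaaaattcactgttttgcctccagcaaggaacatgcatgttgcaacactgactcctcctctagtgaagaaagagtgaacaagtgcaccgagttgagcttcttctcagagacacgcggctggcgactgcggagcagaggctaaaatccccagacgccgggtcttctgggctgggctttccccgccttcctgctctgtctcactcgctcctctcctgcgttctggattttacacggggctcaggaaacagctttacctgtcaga
Prlr downstream start, chr2:60909409-60909708: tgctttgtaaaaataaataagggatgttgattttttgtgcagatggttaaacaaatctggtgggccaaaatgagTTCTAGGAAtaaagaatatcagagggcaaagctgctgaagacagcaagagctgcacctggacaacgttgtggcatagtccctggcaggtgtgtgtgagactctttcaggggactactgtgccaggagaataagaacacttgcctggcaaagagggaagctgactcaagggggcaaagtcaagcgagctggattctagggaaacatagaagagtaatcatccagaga
TTCNNNGAA lay in the downstream window and not in the upstream one. It was found in 8.87% of all 33469 promoter windows of the same length and in 1 of the 11 windows of the 9 receptors, so a match is a description and not a site of binding. The upstream Prlr window held 12 CG dinucleotides, more than in 62.9% of all windows, and the downstream one held 2, more than in 13.6%. Among the receptors' 11 windows, 4 held GGGCGG on either strand (33.1% of all windows) and 0 held TATAAA on either strand (14.2% of all windows). The files give positions on Rnor_6.0, so these windows were not joined to the isoform rows below.

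No receptor passed the test of SG against SHAM across all genes. With edgeR's quasi-likelihood test, 0 of 8 receptors had an adjusted p under 0.05 against 0% of the 11139 genes, and 0 of 8 had an unadjusted p under 0.05 against 4.53% (505 genes). DESeq2 called 18 genes (0.162%), none of them a receptor, and limma on log2(FPKM + 0.5) called 0 genes (0%) at the adjusted threshold. At an unadjusted p under 0.05, DESeq2 held 5.62% of genes and 0 receptors, and limma on log2(TPM + 0.5) held 3.12% of genes and 0 receptors. The log2 fold change of SG over SHAM was positive for 5 receptors and negative for 3, with a median of 0.02 beside -0.01 over all genes tested, of which 47.4% were positive. The signs of Adipor1 and Egfr turn positive in limma on log2(FPKM + 0.5), where the median over all genes was 0.08. The sign of Adipor2 turns negative in limma on log2(TPM + 0.5), where that median was 0.0046 and Adipor1 stood at -7.2e-05. These 3 receptors are therefore read as estimates near 0 with no direction. Fgfr4 and Gcgr turn negative in the reference isoforms alone, and Fgfr4 and Prlr with some single livers left out, so no direction is given for them either. A change of more than 1.5-fold in either direction was outside the 95% interval of 5 of 8 receptors, against 60.6% of all genes, and one of more than 2-fold outside that of 6 of 8, against 84.9%.

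**Figure D1:**
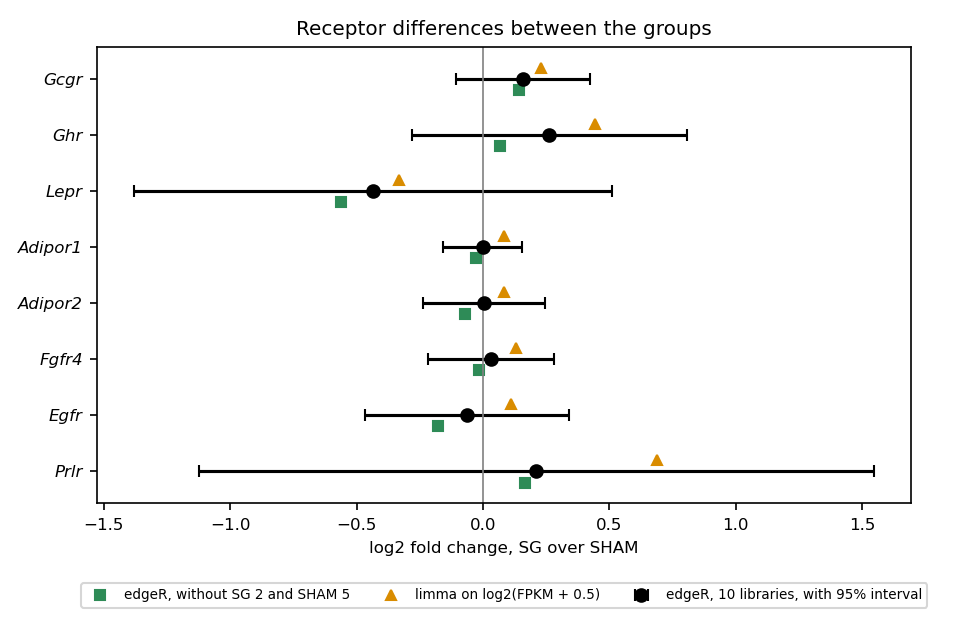
The log2 fold change of SG over SHAM (x axis) is drawn for each receptor with the edgeR estimate and its 95% interval (n = 5 livers a group), the edgeR estimate without SG 2 and SHAM 5, and the limma estimate on log2(FPKM + 0.5). All 8 edgeR intervals include 0, from a narrow one for Adipor1 (-0.16 to 0.15) to a wide one for Prlr (-1.12 to 1.55).

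Gcgr, the glucagon receptor on chromosome 10 (Rnor_6.0, 109702090 to 109716128, + strand), stood at 15.21, 15.36, 14.92, 15.09 and 14.64 FPKM in SG 1 to SG 5. In SHAM 1 to SHAM 5 it stood at 13.30, 17.71, 11.90, 10.06 and 11.90 FPKM. The SG livers lay close together and 4 of 5 SHAM livers fell below all of them, but SHAM 2 was above every SG liver, so the groups overlapped. The SG mean was 15.0 ± 0.28 FPKM and the SHAM mean 13.0 ± 2.89 FPKM (SD over 5 livers each). In counts scaled by library size (CPM), SG ran from 96.1 to 113 and SHAM from 74.8 to 119, so the SG livers were spread more widely there than in FPKM and still less than the SHAM livers. The edgeR log2 fold change was 0.16 ± 0.12 (SE; 95% interval -0.11 to 0.42; adjusted p = 0.991). Without SHAM 2 it was 0.26 (edgeR, unadjusted p 0.0209, adjusted 0.947), and over the libraries left out in turn it ran from 0.11 to 0.26.

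Most Gcgr signal came from assembled isoforms that begin upstream of the reference transcripts. Isoforms starting between 109702090 and 109705220 held 90.2% of Gcgr FPKM, and the 3 reference isoforms, which start between 109707962 and 109708755, held 9.80%. The most abundant isoform (4710 bases, 13 exons) carried 52.7% of the FPKM, followed by those of 7911 bases (19.6%) and 6229 bases (17.6%). All 7 isoforms ended at 109716128. In the reference isoforms alone, the Gcgr log2 fold change was -0.56 (edgeR, adjusted p = 0.997), the opposite sign of the sum, so no direction is given for this gene.

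Ghr, the growth hormone receptor on chromosome 2 (53150370 to 53413638, - strand), was the most abundant receptor of the set per length. It stood at 70.3, 96.9, 75.1, 64.4 and 89.3 FPKM in SG 1 to SG 5, and at 66.3, 72.0, 46.7, 54.7 and 51.3 FPKM in SHAM 1 to SHAM 5. SG 2, SG 3 and SG 5 lay above every SHAM liver, SHAM 3, SHAM 4 and SHAM 5 lay below every SG liver, and the remaining livers overlapped. In counts scaled by library size alone (CPM), without the further scaling between libraries that edgeR applies, the groups overlapped more. There SG 2 (670 CPM) was the only SG liver above the SHAM maximum of 518 CPM. SHAM 3 (277 CPM) was the only SHAM liver below the SG minimum of 291 CPM. Over the SG livers the mean was 79.2 ± 13.5 FPKM, and over the SHAM livers 58.2 ± 10.6 FPKM (SD over 5 livers each). In edgeR the log2 fold change was 0.26 ± 0.25 (SE; 95% interval -0.28 to 0.81; adjusted p = 0.991). limma on log2(FPKM + 0.5) gave 0.44, with an unadjusted p of 0.0163 and an adjusted p of 0.704. Ghr was the only one of the 8 receptors with an unadjusted p under 0.05 in that fit, where 6.41% of all genes had one. The median over all genes was 0.08 there. In limma on log2(TPM + 0.5), where that median was 0.0046, Ghr was 0.36 (unadjusted p 0.0561, adjusted 0.999). Without SG 2 the edgeR value was 0.08, without SG 5 and without SHAM 1 it was 0.40 each, and without both SG 2 and SHAM 5 it was 0.07. In the reference isoforms alone it was 0.55 (edgeR, unadjusted p 0.0321, adjusted 0.995).

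The Ghr sum drew on 11 isoforms that differ widely in length. A reference isoform of 941 bases and 7 exons (53159873 to 53413638) held 38.3% of Ghr FPKM but 7.60% of its counts, while an assembled isoform of 20750 bases held 10.4% of the FPKM and 45.7% of the counts. An assembled isoform of 2910 bases carried 18.2% of the FPKM. Rows that end near the gene's outermost 3′ end, between 53150370 and 53151211, held 51.4% of FPKM, and those ending between 53158506 and 53159873 held 48.6%. The files do not say which of them encodes the binding protein.

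One Ghr isoform set SG 5 apart. A reference isoform of 702 bases and 5 exons (53159525 to 53185926) stood at 43.7 FPKM in SG 5 and at 0.284 to 0.472 FPKM in the other 9 libraries. It held 3024 estimated counts there, 13.1% of the Ghr counts of that library. With that row left out, a calculation chosen after its values were seen, Ghr in SG 5 stood at 45.6 FPKM, below every SHAM liver. The means were then 70.2 ± 18.5 FPKM over the SG livers and 57.8 ± 10.5 FPKM over the SHAM livers (SD, n = 5). The Ghr fold changes and p-values given above, in edgeR, in limma and in the reference isoforms, include that row.

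**Figure D2:**
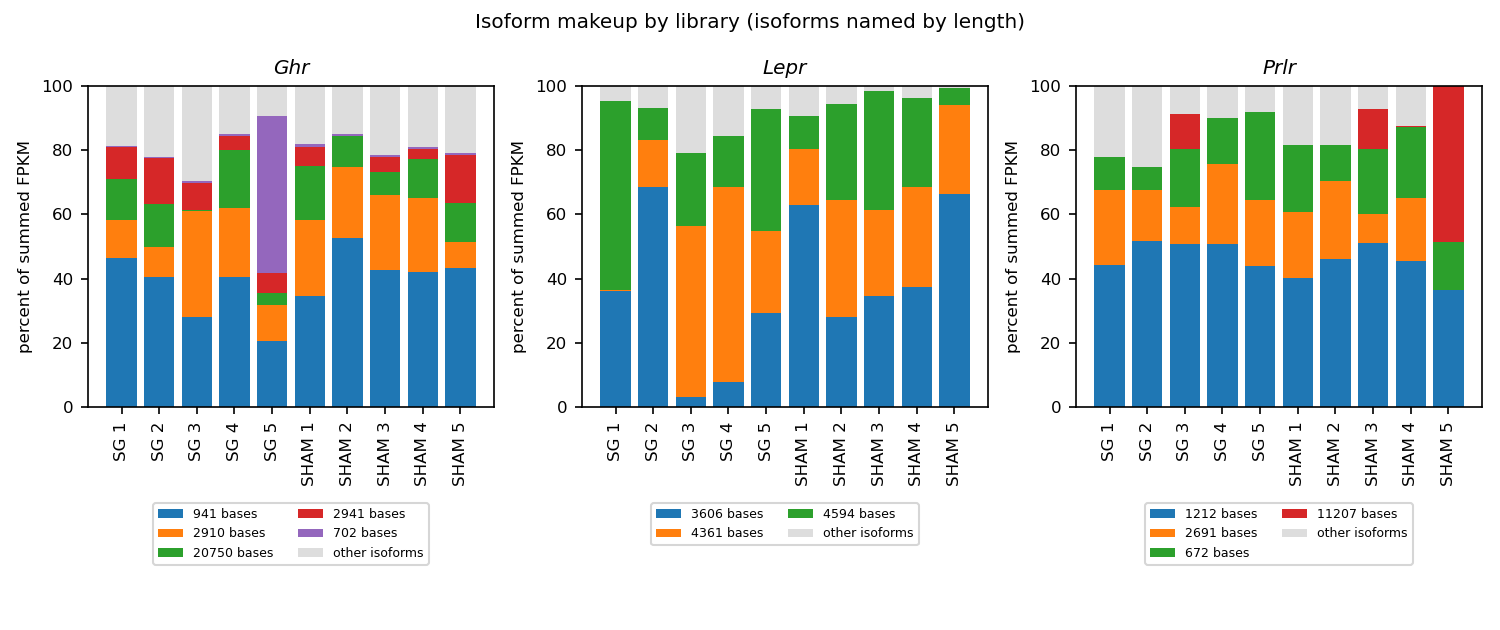
Stacked bars give the percent of summed FPKM (y axis) held by each isoform, named by its length in bases, in each of the 10 libraries (x axis) for Ghr, Lepr and Prlr. The 702-base Ghr isoform is prominent in SG 5 only, the 3606-base Lepr isoform runs from 3.19% in SG 3 to 68.6% in SG 2, and the 11207-base Prlr isoform holds 48.6% of the little Prlr left in SHAM 5.

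Prlr, the prolactin receptor on chromosome 2 (60131631 to 60329128, + strand), had the widest range. It stood at 25.9, 6.93, 30.4, 16.9 and 34.6 FPKM in SG 1 to SG 5, and at 26.9, 24.5, 19.8, 21.0 and 0.648 FPKM in SHAM 1 to SHAM 5. SG 2 and SHAM 5 were the lowest of their groups, the other 8 livers lay between 16.9 and 34.6 FPKM, and the highest liver was 53.4 times the lowest. The SG mean was 23.0 ± 11.1 FPKM and the SHAM mean 18.5 ± 10.4 FPKM (SD over 5 livers each). By edgeR, SG over SHAM gave a log2 fold change of 0.21 ± 0.60 (SE; 95% interval -1.12 to 1.55; adjusted p = 0.993). It was -0.08 without SHAM 5, -0.15 without SG 3 and 0.17 without both SG 2 and SHAM 5, so its sign rested on single livers.

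The 2 livers lowest in Prlr were the 2 highest in macrophage markers. Of 12 such markers, 11 had rows and were tested, 3 with a positive and 8 with a negative log2 fold change (median -0.35), and 0 passed in edgeR. Among the defining markers, Clec4f, a Kupffer cell lectin, stood at 76.6 FPKM in SG 2 and 116 FPKM in SHAM 5, and at 27.6 to 48.7 FPKM elsewhere. Albumin, made by hepatocytes, stood at 17084 FPKM in SG 2 and 17926 FPKM in SHAM 5, within the range of 15517 to 27810 FPKM of the other livers. The hepatocyte marker sum, however, was the lowest of its group in both livers. It was 39114 FPKM in SG 2, against 40982 to 51323 in the other SG livers. In SHAM 5 it was 34087 FPKM, against 35535 to 46586 in the other SHAM livers. SG 2 also had the highest stellate cell sum (128 FPKM, against at most 78.6 elsewhere) and lymphocyte sum (85.7 FPKM, against at most 40.6), while SHAM 5 stood at 66.6 and 36.8 FPKM. The part of these cells in the Prlr values was not tested.

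**Figure D3:**
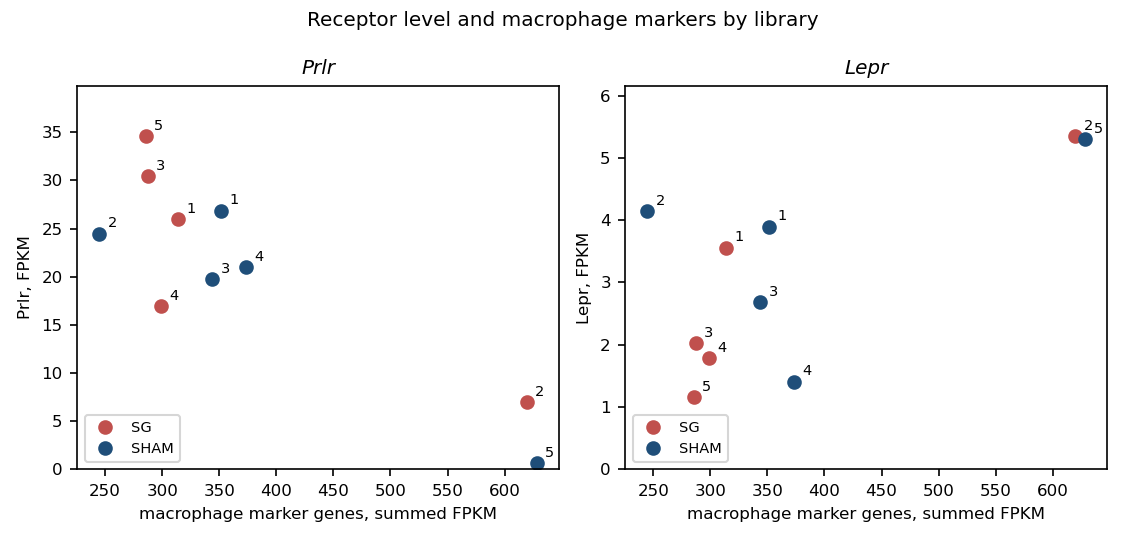
The summed FPKM of the macrophage marker genes (x axis) is drawn against the FPKM of Prlr (left) and Lepr (right), 1 point a library with its replicate number. SG 2 and SHAM 5, at 620 and 628 on the x axis, have the lowest Prlr of their groups (6.93 and 0.648) and the highest Lepr (5.36 and 5.31).

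Prlr transcripts used 4 groups of starts when starts within 2 kb were joined. The first, at 60131631 to 60131776, held 83.8% of Prlr FPKM. A start 37886 bases downstream held 6.68%, one 48584 bases downstream 6.55%, and one 170766 bases downstream 2.95%. In SHAM 5 both middle starts were at 0.

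Most Prlr signal also ended early. Assembled isoforms of 1212 and 672 bases, which end between 60286120 and 60286596, some 43008 bases before the outermost 3′ end, held 64.5% of the FPKM in all (46.3% and 18.2%). The assembled isoform of 2691 bases and 11 exons that runs to 60325668 held 19.0%. An isoform of 11207 bases (60302397 to 60329128) held only 2.95% of the FPKM but 19.9% of the counts, because counts grow with length. It carried 3430 counts in SG 3, 2943 in SHAM 3 and 353 in SHAM 5, where it made up 90.7% of the Prlr counts, 46 in SHAM 4, 29 in SG 4 and 0 in the other 5 libraries. SG 3 and SHAM 3, where this row held the most counts, stood at 95.8 and 68.8 CPM, the 2 highest livers on that scale. Its part in the Prlr fold change was not tested.

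Lepr, the leptin receptor on chromosome 5 (120564645 to 120680609, + strand), was the least abundant. It stood at 3.56, 5.36, 2.03, 1.78 and 1.16 FPKM in SG 1 to SG 5, and at 3.90, 4.14, 2.68, 1.41 and 5.31 FPKM in SHAM 1 to SHAM 5. The groups overlapped almost fully, with SG 2 and SHAM 5, the livers low in Prlr, at the top of each. Over the SG livers the mean was 2.78 ± 1.69 FPKM, and over the SHAM livers 3.49 ± 1.49 FPKM (SD over 5 livers each). Its log2 fold change in edgeR was -0.43 ± 0.43 (SE; 95% interval -1.38 to 0.51; adjusted p = 0.991). It was -0.78 without SG 2, -0.22 without SHAM 5 and -0.56 without both.

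Lepr isoforms divide by their 3′ end. A reference isoform of 3606 bases that ends at 120652253 held 45.0% of the FPKM, and isoforms that run on to between 120680598 and 120680609 held 49.2%, chiefly assembled ones of 4361 bases (25.8%) and 4594 bases (22.6%). The share of the 3606-base isoform was 36.1%, 68.6%, 3.19%, 7.80% and 29.3% in SG 1 to SG 5, and 62.9%, 28.1%, 34.5%, 37.5% and 66.2% in SHAM 1 to SHAM 5. It was highest in SG 2 and SHAM 5, the livers with the most Lepr, and nearly gone in SG 3 and SG 4. The means were 29.0% ± 26.1 and 45.8% ± 17.5 (SD, n = 5; exact permutation p = 0.310, adjusted 0.495 over 8 receptors). In RefSeq's annotation Lepr overlaps Leprot, and the labels do not say how reads of the overlap were assigned.

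Adipor1, the adiponectin receptor linked to AMPK, lies on chromosome 13 (51240502 to 51260228, + strand) and was the steadiest receptor. It stood at 26.8, 29.4, 26.3, 26.4 and 28.8 FPKM in SG 1 to SG 5, and at 26.2, 29.2, 24.2, 25.2 and 25.3 FPKM in SHAM 1 to SHAM 5. The highest liver was 1.22 times the lowest, and the groups overlapped. The SG mean was 27.6 ± 1.47 FPKM and the SHAM mean 26.0 ± 1.93 FPKM (SD over 5 livers each). The edgeR log2 fold change was -0.0018 ± 0.07 (SE; 95% interval -0.16 to 0.15; adjusted p = 0.9998). Its main isoform, assembled and 2030 bases long, held 77.8% of the FPKM and the reference isoform of 2025 bases, which starts further downstream, held 19.9%.

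Adipor2, the adiponectin receptor more tied to PPARα in mouse liver, lies on chromosome 4 (151408065 to 151448751, - strand). It stood at 20.6, 22.6, 16.4, 19.4 and 19.0 FPKM in SG 1 to SG 5, and at 18.9, 18.2, 17.9, 19.9 and 17.2 FPKM in SHAM 1 to SHAM 5. The SG livers held both the highest and the lowest value. Over the SG livers the mean was 19.6 ± 2.28 FPKM, and over the SHAM livers 18.4 ± 1.02 FPKM (SD over 5 livers each). In edgeR the log2 fold change was 0.0039 ± 0.11 (SE; 95% interval -0.24 to 0.24; adjusted p = 0.9998).

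Adipor2 was nearly a 1-isoform gene. An assembled isoform of 8075 bases held 97.7% of its FPKM and 99.6% of its counts, and the reference isoform of 1445 bases the rest. The share of the long isoform was 98.1% ± 0.40 in SG and 97.4% ± 0.52 in SHAM (SD, n = 5), a difference of 0.75 percentage points (exact permutation p = 0.0397, two-sided, adjusted 0.317 over 8 receptors). Over all 8 receptors, 0 isoform shares passed after adjustment, where the smallest p that 5 livers against 5 allow is 0.00794. The ratio of Adipor2 to Adipor1 differed between the groups by -0.0015 on the log2 scale (exact permutation p = 0.992; adjusted over 2 ratios 0.992), with a mean log2 ratio of -0.50 in each group.

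Fgfr4, the hepatocyte's main FGF receptor, lies on chromosome 17 (9990078 to 10004321, - strand). It stood at 12.9, 13.5, 10.9, 11.2 and 15.2 FPKM in SG 1 to SG 5, and at 11.5, 10.6, 13.7, 11.5 and 10.5 FPKM in SHAM 1 to SHAM 5. SG 5 was the highest liver, and the groups overlapped over most of their range. The SG mean was 12.7 ± 1.78 FPKM and the SHAM mean 11.6 ± 1.27 FPKM (SD over 5 livers each). By edgeR, SG over SHAM gave a log2 fold change of 0.03 ± 0.11 (SE; 95% interval -0.22 to 0.28; adjusted p = 0.993). It was -0.33 in the reference isoforms alone and -0.016 without SG 2 and SHAM 5.

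Fgfr4 isoforms were alike in length, from 3108 to 3228 bases, and all ended at 9990078. Reference isoforms of 3136 bases (26.6%) and 3228 bases (25.8%) and assembled ones of 3139 bases (24.3%) and 3108 bases (18.2%) shared the FPKM. The 3136-base isoform took 3.69% of the FPKM in SG 5 and 64.6% in SHAM 3, with means of 22.1% ± 19.2 in SG and 32.3% ± 18.9 in SHAM (SD, n = 5; exact permutation p = 0.437, adjusted 0.582). The difference of -10.2 percentage points was -2.12 without SHAM 3. Isoforms this similar share most of their sequence, so their split by the assembler is uncertain.

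Egfr, the epidermal growth factor receptor, lies on chromosome 14 (99873880 to 100104142, + strand). It stood at 31.9, 37.6, 20.4, 37.7 and 34.1 FPKM in SG 1 to SG 5, and at 47.4, 30.1, 35.1, 19.0 and 22.4 FPKM in SHAM 1 to SHAM 5. The SHAM livers held both the highest and the lowest value. Over the SG livers the mean was 32.4 ± 7.10 FPKM, and over the SHAM livers 30.8 ± 11.2 FPKM (SD over 5 livers each). Its log2 fold change in edgeR was -0.06 ± 0.18 (SE; 95% interval -0.47 to 0.34; adjusted p = 0.993). Without SG 2 and SHAM 5 it was -0.18.

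The Egfr sum also rested on long assembled isoforms. The reference isoform of 4158 bases and 28 exons held 39.9% of the FPKM and 16.1% of the counts, an isoform of 15365 bases held 23.8% of the FPKM and 34.6% of the counts, and one of 17553 bases 11.7% and 19.6%. A 2-exon isoform of 10099 bases (99919485 to 99980637) carried 14.1% of the FPKM. Isoforms of at least 8 kb made up 83.8% of Egfr counts and 67.9% of Ghr counts. Rows antisense to Egfr or inside its introns, left out of the sum, reached 86.1 FPKM in SG 2 and ran from 7.71 to 51.5 FPKM in the other livers. Such rows of Ghr, also left out, ran from 7.59 FPKM in SG 5 to 27.2 FPKM in SG 2. The 1 such row of Adipor2 ran from 1.16 to 3.39 FPKM. The labels do not say whether the counting used strand, so sense and antisense reads may not be told apart.

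**Figure D4:**
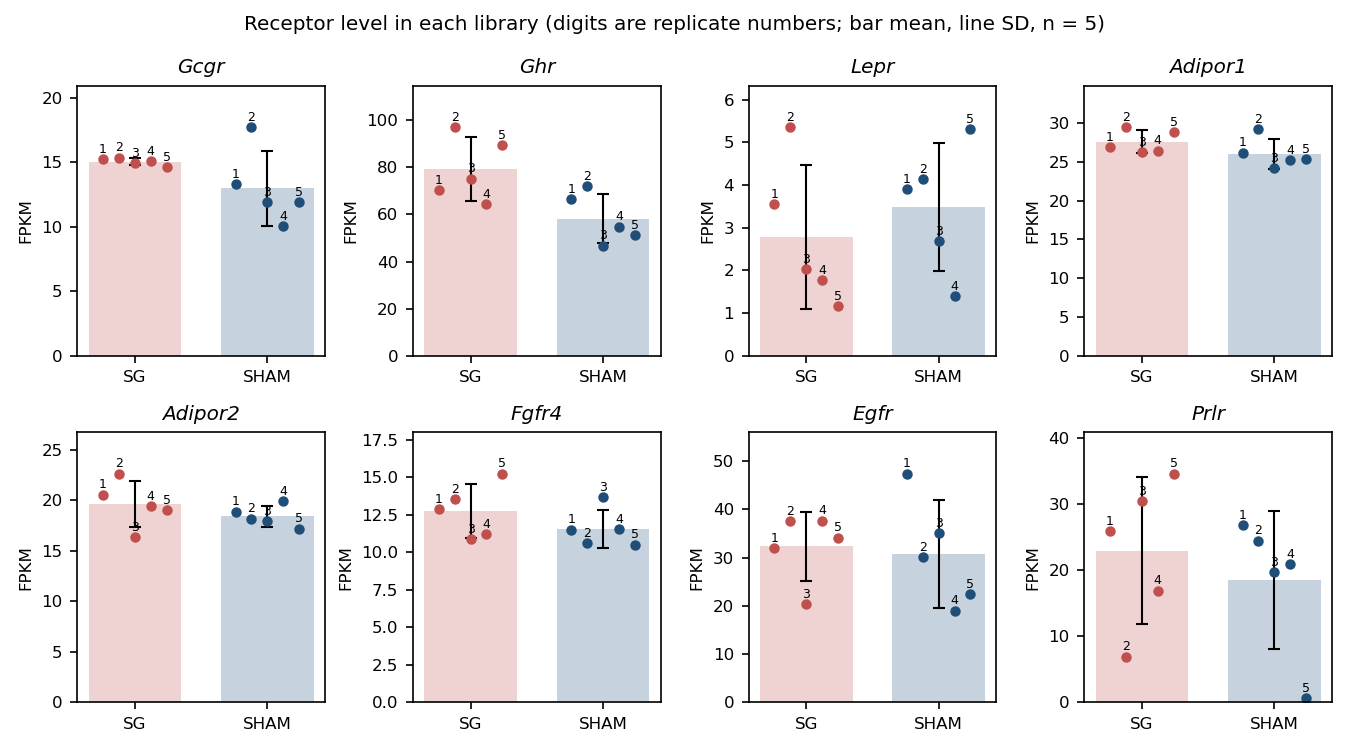
Each panel gives the FPKM (y axis) of 1 receptor in the 5 SG and 5 SHAM libraries, with points labelled by replicate number, bars for the group mean and lines for the SD (n = 5). The groups overlap for all 8 receptors, and the low Prlr points are SG 2 (6.93) and SHAM 5 (0.648).

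By mean FPKM over the 10 libraries, the order was Ghr (68.7), Egfr (31.6), Adipor1 (26.8), Prlr (20.8), Adipor2 (19.0), Gcgr (14.0), Fgfr4 (12.2) and Lepr (3.13). Ghr was above Egfr, Adipor2 above Gcgr and Fgfr4 above Lepr in 10 of 10 libraries. The order of Ghr and Egfr holds per length only. In CPM, which is not scaled by length, the mean was 428 for Egfr and 415 for Ghr. The other 4 neighbouring pairs held their order in 7 of 10 libraries each and did not differ beyond their spread. Of the neighbouring pairs, only Fgfr4 and Lepr had ranges over the livers that did not overlap. Ghr lay above 94.7% of the genes tested and Lepr above 30.4%.

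The receptors differed widely in their spread between livers of a group. The SD of log2 CPM within groups was 0.064 for Adipor1, lower than in all but 0.386% of the genes tested, and 0.15, 0.17 and 0.18 for Adipor2, Fgfr4 and Gcgr. Egfr (0.30) and Ghr (0.42) lay above the median of 0.26 over all genes. Lepr (0.78) and Prlr (1.29) exceeded 92.4% and 96.9% of all genes.

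**Figure D5:**
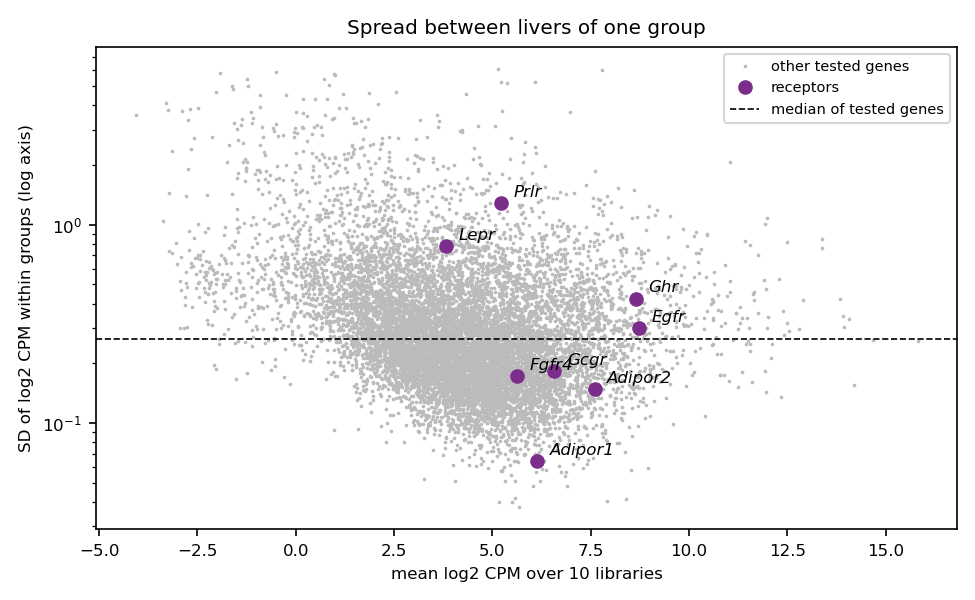
The SD of log2 CPM within groups (y axis, log scale) is drawn against the mean log2 CPM (x axis) for every gene tested, with the 8 receptors marked and a dashed line at the median of all genes (0.26). Adipor1 sits near the lower edge at 0.064, and Prlr at 1.29 and Lepr at 0.78 lie above 96.9% and 92.4% of all genes tested.

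The log2 ratio of Prlr to Ghr was -1.44, -3.81, -1.30, -1.93 and -1.37 in SG 1 to SG 5, and -1.30, -1.56, -1.24, -1.38 and -6.31 in SHAM 1 to SHAM 5. SG 2 and SHAM 5 were low, and the other 8 livers lay between -1.93 and -1.24. The groups differed by 0.39 (exact permutation p = 0.873; adjusted over 2 ratios 0.992), and by -0.60 without SHAM 5.

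Among 28 pairs of receptors, 0 were correlated over the 10 livers after adjustment (permutation test, smallest adjusted p 0.613 for Pearson r on log2 CPM). Lepr and Prlr gave a negative value that did not pass (r = -0.57, rho = -0.48; permutation p = 0.0802 and 0.167; adjusted 0.613 and 0.558), with r = -0.66 without the 2 livers farthest from the Lepr median (SG 5 and SHAM 4). Without SG 2 and SHAM 5 it was r = 0.04, so the negative value rested on those livers. Adipor1 and Prlr gave r = -0.54 and rho = -0.68 (permutation p = 0.0948 and 0.0354; adjusted 0.613 and 0.453), with r = -0.92 within SG and -0.25 within SHAM, and the sign turned on log2(FPKM + 0.5) (r = 0.17). On log2(FPKM + 0.5) in place of log2 CPM, 1 pair passed, Ghr with Adipor1 (r = 0.90, permutation p adjusted over 28 pairs 0.0213). On log2 CPM that pair gave r = 0.42 (adjusted permutation p 0.613), and r = 0.0019 without SG 2 and SHAM 5.

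The genes whose log2 CPM followed each receptor most closely over the 10 livers are given as a description, each the nearest 3 of 11138 genes. Ghr was followed by Hgfac, a serine protease made in hepatocytes (r = 0.97, rho = 0.93), Faah, which breaks down fatty acid amides (r = 0.94), and Lzic (r = 0.91). Gcgr was followed by Akr1c3, an aldo-keto reductase (r = 0.93), Hykk, a hydroxylysine kinase (r = 0.92), and Rgl3 (r = 0.92). Lepr was followed by Crym, a thyroid hormone binding protein (r = 0.89), the kinase Hipk1 (r = 0.88) and B9d2 (r = 0.88). For Adipor1 they were Sema6b (r = 0.94), Fam117b (r = 0.91) and Mgrn1 (r = 0.88). Without SG 2 and SHAM 2, the livers farthest from the Adipor1 median, these values were 0.85, 0.72 and 0.48. For Adipor2 the nearest genes were the zinc transporter Slc39a1, St6galnac6 and Sbno2 (r = 0.90 each).

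Fgfr4 was followed by AABR07026271 (r = 0.93), Tmx1 and Dcaf5 (r = 0.91 each), and Egfr by Fbxl20 (r = 0.87), Tmem176b (r = 0.86) and Nudt4 (r = 0.85). Prlr was followed by the helicase Dhx40 (r = 0.94), LOC100910446 (r = 0.92) and the proton pump subunit Atp6v1c1 (r = 0.92). Without SG 2 and SHAM 5 these 3 values were 0.77, -0.17 and 0.70, so the likeness of LOC100910446 to Prlr rested on those livers.

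The pathways around the receptors were read from 7 lists of genes, and 0 genes of any of them passed the edgeR test after adjustment. Of 21 tested genes of glucagon and cAMP signalling, 9 had a positive and 12 a negative log2 fold change (median -0.04, against -0.01 over all genes). The smallest p belonged to Pde4d, which breaks down cAMP (0.36), Adcy5, which makes it (0.34), and the G protein subunit Gnaq (-0.13), with unadjusted edgeR p of 0.0215, 0.0493 and 0.142 and an adjusted p of 0.991 each. Without SG 2 and SHAM 5, Pde4d was 0.25 and Adcy5 0.19. Pde4d stood at 5.11 ± 0.94 FPKM over the SG livers and 3.69 ± 0.69 FPKM over the SHAM livers (SD, n = 5).

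Of 23 tested genes of the JAK-STAT path shared by Ghr, Prlr and Lepr, 15 were positive and 8 negative (median 0.07). The smallest p belonged to the phosphatases Ptpn2 (-0.19) and Ptpn11 (-0.11) and to Stat3 (-0.31), with unadjusted edgeR p of 0.196, 0.197 and 0.243. Stat3 was -0.59 without SG 2 and SHAM 5 (edgeR, unadjusted p 0.0219, adjusted 0.935), and with 1 library left out it ran from -0.55, without SG 2, to -0.14, without SHAM 3. The feedback inhibitors were high in SG 2, with Socs3 at 32.9, Socs2 at 21.7 and Cish at 16.7 FPKM, above the other 9 livers in each case. Igf1, the growth hormone target secreted by the liver, stood at 37.5 ± 6.71 FPKM over the SG livers and 32.3 ± 5.93 FPKM over the SHAM livers (SD, n = 5).

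Of 9 tested sex-dependent liver genes under growth hormone control, 5 were positive and 4 negative (median 0.01). Hsd3b5, a male-biased steroid enzyme, had the smallest p, with 83.5 ± 32.05 FPKM over the SG livers, 45.7 ± 7.89 FPKM over the SHAM livers (SD, n = 5) and a log2 fold change of 0.56 (edgeR, unadjusted p = 0.0148, adjusted 0.991). Kdm5d, encoded on the Y chromosome (0.12), and Sult1c2 (0.41) came next, with unadjusted edgeR p of 0.238 and 0.425. With 1 library left out, Sult1c2 ran from 0.17 to 1.01, the highest without SHAM 4 and the lowest without SHAM 1, and Kdm5d from 0.056, without SHAM 3, to 0.17. Kdm5d stood at 4.22 to 7.04 FPKM in all 10 livers. Cyp2c12, a female-biased steroid hydroxylase, stood at 20.1 FPKM in SHAM 4, 10.2 in SG 5, 6.40 in SG 1 and 1.17 in SHAM 5, and at no more than 0.10 FPKM elsewhere.

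Of 16 tested adiponectin receptor partners and AMPK genes, 10 were positive and 6 negative (median 0.07). Appl2 (0.22) and Appl1 (0.24), adaptors that bind the adiponectin receptors, and Paqr9 (1.44), a relative of those receptors, had the smallest p (edgeR, unadjusted 0.0663, 0.157 and 0.0786, adjusted 0.991 each). Paqr9 stood at 13.1 ± 6.30 FPKM over the SG livers and 4.57 ± 4.23 FPKM over the SHAM livers (SD, n = 5). Adipoq, the ligand made by fat cells, was listed at 0 in 9 of 10 libraries.

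Of 17 tested genes of FGF receptors, klotho proteins and bile acid feedback, 11 were positive and 6 negative (median 0.11). Cyp7a1, the bile acid synthesis enzyme that Fgfr4 restrains, had the smallest p, with 38.6 ± 40.1 FPKM over the SG livers and 102 ± 35.3 FPKM over the SHAM livers (SD, n = 5) and a log2 fold change of -1.46 (edgeR, unadjusted p = 0.0571, adjusted 0.991). It stood at 108 FPKM in SG 1, 28.6, 26.9 and 27.5 in SG 3, SG 4 and SG 5, and 2.55 in SG 2, against 53.9 to 145 in SHAM. Without SG 2 and SHAM 5 the log2 fold change was -1.10, and with 1 library left out it ran from -2.24, without SG 1, to -1.15, without SG 2. The SG livers other than SG 1 lay below every SHAM liver. The adaptor Frs2 (0.12) and the ligand Fgf1 (0.43) followed, with unadjusted edgeR p of 0.168 and 0.186. They were 0.065 and 0.64 without SG 2 and SHAM 5.

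Of 19 tested genes of ERBB receptors, ligands and brakes, 11 were positive and 8 negative (median 0.0051). Lrig1, which lowers ERBB receptor levels (0.25), the adaptor Gab2 (-0.25) and the Egfr ligand Tgfa (0.17) had the smallest p (edgeR, unadjusted 0.0807, 0.137 and 0.177). Erbb3, which pairs with other ERBB receptors, stood at 48.8 to 69.2 FPKM in SG and 33.2 to 82.2 FPKM in SHAM, and Erbb2 at 0.06 to 0.18 FPKM over the 10 livers.

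Of 16 tested other hormone receptors, 10 were positive and 6 negative (median 0.01). Il6r, the interleukin 6 receptor, had the smallest p, with 11.4 ± 2.99 FPKM over the SG livers and 22.6 ± 15.2 FPKM over the SHAM livers (SD, n = 5) and a log2 fold change of -1.01 (edgeR, unadjusted p = 0.0199, adjusted 0.991). SHAM 2 stood at 47.5 FPKM, and without 1 library at a time the value ran from -1.21 to -0.64. Insr, the insulin receptor, stood at 29.6 ± 1.60 FPKM over the SG livers and 28.4 ± 3.89 FPKM over the SHAM livers (SD, n = 5).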

How the data were processed

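RNA was measured in 10 livers after removal of ribosomal RNA, with about 5 ug of total RNA a library and paired-end sequencing, per the labels' protocols. Per the submitters' processing notes, the tools were HISAT2 2.0.4, StringTie 1.3.4, cutadapt 1.9 and FastQC 0.10.1, and the build was Rnor_6.0. The deposited isoform table gives FPKM values and estimated counts for each library, per the file headers. The sources used here do not give how the counts were made, and each library's deposited counts were proportional to FPKM times length, so they are estimates rather than read tallies. They were rounded to whole numbers for testing.

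Isoform rows with class codes =, c, j or o were summed by gene name, so names shared by several loci were joined, and rows inside introns or antisense were left out. Genes with a mean of at least 1 FPKM were tested with edgeR 4.0.16 (quasi-likelihood test, TMM scaling, R 4.3.3), with Benjamini-Hochberg adjustment over all genes and a threshold of 0.05, after the code was tested on simulated data. Alternatives used DESeq2 1.42.0 and limma 3.58.1. Isoform shares and ratios used exact permutation tests (all splits into 5 and 5, two-sided, smallest p 0.00794) and correlations 100000 permutations. The depth was 65824088 to 92110190 estimated counts a library, and intervals come from the spread between libraries.

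The text names all the receptors, isoforms with at least 10% of a receptor's FPKM, the 3 genes of each pathway list with the smallest p, and the 3 genes most correlated with each receptor. A few results that this rule would name are not reported here. Other isoforms and genes were named after their values were seen. The receptors and lists were chosen with earlier results of these data known. Promoter sequences are from RefSeq on GRCr8, which differs from the build of the files, and no position was converted. Klb was not analysed here.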

Additional observations from a re-analysis of the deposited data

Results flagged for a closer look

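In 36 groups of 5 livers, each receptor level, isoform share and ratio was checked for a liver set apart from the rest of its group, and 3 met the criterion (Dixon's 95% critical value of 0.710), where chance gives about 1 in 20 groups. Prlr stood at 0.648 FPKM in SHAM 5, with the other SHAM livers at 19.8 FPKM or more. The log2 ratio of Prlr to Ghr was -6.31 in SHAM 5. In SG 2 that ratio was -3.81, with the other SG livers between -1.93 and -1.30. The 3 are not independent, since Prlr enters each of them. SG 2 and SHAM 5 were also the livers with the highest macrophage marker sums (620 and 628 FPKM), and the part of those cells was not tested.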

How the results depend on the processing

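No receptor was called under any alternative run. Over all genes, DESeq2 called 18, and edgeR called 1 without both SG 2 and SHAM 5 and between 0 and 1 with a single library left out (1 without SG 5 and 1 without SHAM 1). The replicate numbers did not pair the livers (correlations of -0.22 to 0.14). Only SG 5 correlated best with the library of its own number, and no SHAM library did. A replicate block called 0 genes and gave Adipor2 -0.0022. Correlations on log2(FPKM + 0.5) gave 1 pair. Estimates near 0 changed sign. Adipor1 was 0.0028 with DESeq2, 0.0027 with its size factors in edgeR, 0.015 at a mean of at least 5 FPKM, 0.084, 0.085 and 0.082 in limma on log2(FPKM + 0.5), (FPKM + 0.1) and (FPKM + 1), and 0.044 in reference isoforms alone. Adipor2 was -0.0032 with no filter, -0.0015 in limma on log2(TPM + 0.5) and -0.070 without SG 2 and SHAM 5. Fgfr4 was -0.33 in reference isoforms and -0.016 without SG 2 and SHAM 5. Egfr was 0.110, 0.112 and 0.108 in the 3 limma fits on FPKM, 0.027 on TPM and 0.14 in reference isoforms, where Gcgr was -0.56. The Adipor2 to Adipor1 ratio was 0.00026 in counts and -0.82 in reference isoforms (adjusted p 0.135, exact permutation). The cause was not tested. With 1 library left out, log2 fold changes ran from -0.032 to 0.018 for Adipor1, -0.058 to 0.054 for Adipor2, -0.019 to 0.12 for Fgfr4, -0.17 to 0.040 for Egfr and -0.15 to 0.45 for Prlr, the Adipor1 isoform share difference from -7.16 to 1.20 percentage points, and the log2 ratio differences from -0.048 to 0.044 for Adipor2 to Adipor1 and -0.60 to 0.85 for Prlr to Ghr. In reference isoforms alone, Prlr was at 0 in SHAM 5, so its share and ratio gave no value, and Adipor2 fell below the filter. Lepr fell below the filter of 5 FPKM, and the Klb to Fgfr4 ratio was not run. With 5 livers a group, a 2-fold change of Prlr either way, and a 2-fold lower Lepr, lie within the intervals.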
